A study of Arabidopsis thaliana with 12 samples.

Results

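The 136 genes described here lie next to each other on the long arm of chromosome 4 of Arabidopsis thaliana. They are the measured loci from AT4G31170 to AT4G32810 in the order of their names, without 5 loci inside those bounds (AT4G31300, AT4G31700, AT4G31800, AT4G31805 and AT4G32280), out of 20777 loci on the array table. ATH1 arrays, which hybridise labelled RNA to short probes for each gene, measured transcripts in the vegetative part of seedlings at growth stage 1.03. The 4 groups held 3 arrays each, 1 per sample labelled a biological replicate: wild type, and 3 grandifolia lines (gra1-D, gra2-D, gra3-D) that the series title ties to a chromosomal duplication. All 4 groups were of the Col-0 ecotype, and the MS plates stood at 22 °C in days of 16 h light and 8 h dark. The labels do not say how the lines arose or whether the plants carried a duplication on 1 or both homologues, and p-values below measure the spread between these arrays.

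A duplicated chromosome segment gives the cell an additional copy of each gene it contains, whatever those genes do, so neighbouring genes of unrelated function can shift in level together. Transcript levels of such genes need not follow copy number, since feedback on a promoter, limiting transcription factors or RNA turnover can act on single genes. The stretch holds genes of hormone synthesis and response, cellulose and xyloglucan synthesis, chloroplast lipids, electron transport and ATP synthesis, chromatin and cell division, and clusters of genes used mainly in flowers or roots.

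The bounds were read from these same arrays: the lower one is where expression in gra2-D begins to exceed wild type, and the upper one is where gra3-D begins to exceed it too. The genes were thus chosen by their measured differences between gra2-D and the other groups, which are given below as a description. Counts of limma calls in gra2-D stand beside the share of all loci called, and nothing is read from them. The values are log2 expression, so a difference of 1 is a doubling. A gene is called expressed here when its mean over all 12 arrays was at least 6, and a group mean under 5 is treated as close to the array background. Where the wild-type mean was under 5 and the gra2-D mean was not, the difference is read as a lower bound, since background compresses low signals. Errors of a difference are standard errors from limma, with 3 arrays in each group.

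Of the 136 genes 90 were expressed (66.2%, against 54.4% of all loci) and 46 were not. In 33 genes all 4 group means lay under 5. The median wild-type level was 6.97 for the 136 genes and 6.39 for all loci. The gene table of assembly TAIR10.1 lists 184 protein-coding loci between the same bounds, and 140 of them were on the array table. It holds 135 of the 136 genes and gives 59 of them a name other than the locus, and a role is stated only for those. Array medians ran from 6.36 to 6.43. Of 5 leaf markers 1 was on the table, RCA, which encodes Rubisco activase of green tissue and was measured at 14.18 to 14.27 on every array. The 3 floral and 3 seed storage markers had means under 5, as did 4 of 5 root markers. The fifth root marker, PYK10, was expressed and was called lower in gra2-D (log2 difference -0.54), and the part this plays in the values below was not tested.

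Over the 90 expressed genes, the median log2 shift against the wild-type mean, less that of expressed loci outside the raised run of chromosome 4 (AT4G31170 to its end), was 0.93, 0.93 and 0.92 on the 3 gra2-D arrays (mean 0.93, SD 0.000492, n = 3), values that differ by no more than their rounding. That is 1.9-fold the wild-type level. On the gra1-D arrays it was -0.00066, 0.016 and 0.041, and on the gra3-D arrays -0.0022, -0.031 and -0.018. Wild-type arrays lay between -0.013 and 0.0023, so the gra2-D arrays stood apart from the other 9. The gra1-D and the gra3-D arrays each overlapped with wild type, while every gra1-D array lay above every gra3-D array. In bulk tissue, a change in the share of a cell type and a change in RNA per cell cannot be told apart. Further along, the 43 expressed genes from AT4G32830 to the locus before AT4G33510 stood at 0.89 ± 0.0384 (SD, n = 3) in gra2-D, and the 383 from AT4G33510 onward at 0.90 ± 0.0171. In gra3-D the 43 genes stood at 0.90, and in gra1-D at -0.0097. The 383 genes stood at 0.90 in gra1-D and 0.91 in gra3-D, so that part was raised in all 3 lines.

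The shift was even along the stretch. The first 30 expressed genes, AT4G31170 to AT4G31810, stood at 0.91 ± 0.0153 (SD, n = 3) in gra2-D, the next 30, ENP (AT4G31820) to SD2-5 (AT4G32300), at 0.94 ± 0.0279, and the last 30, APX6 (AT4G32320) to VTE1 (AT4G32770), at 0.92 ± 0.00844. In gra1-D the same blocks stood at -0.011, 0.021 and 0.03, and in gra3-D at -0.035, 0.016 and -0.022. At the lower bound, the 3 genes outside it differed from wild type in gra2-D by -0.16 ± 0.081 (AT4G31140), 0.19 ± 0.10 (AT4G31150) and 0.11 ± 0.12 (DCAF1), and the first 3 inside by 0.92 ± 0.067 (AT4G31170), 0.85 ± 0.064 (IBI1) and 0.80 ± 0.093 (AT4G31200). At the upper bound, the last 3 genes inside stood at -0.03 ± 0.075 (AT4G32780), 0.75 ± 0.11 (AT4G32800) and 0.031 ± 0.081 (CCD8) in gra2-D, of which AT4G32780 and CCD8 were close to background in all groups. In gra3-D these 3 stood at -0.14, 0.15 and -0.0051, and the next genes outside at 0.46 ± 0.11 (AUR1), 0.63 ± 0.093 (PFK6) and 0.77 ± 0.073 (nPAP). VTE1, with 0.62 ± 0.11 in gra2-D and -0.083 in gra3-D, was the last expressed gene before the upper bound, so no expressed gene was measured between VTE1 and AUR1. Of the 5 loci left out within the bounds, 4 were expressed, and they differed from wild type in gra2-D by 0.89 (AT4G31300), 0.44 (AT4G31700), 0.63 (AT4G31805) and -0.85 (AT4G32280).

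**Figure D1:**
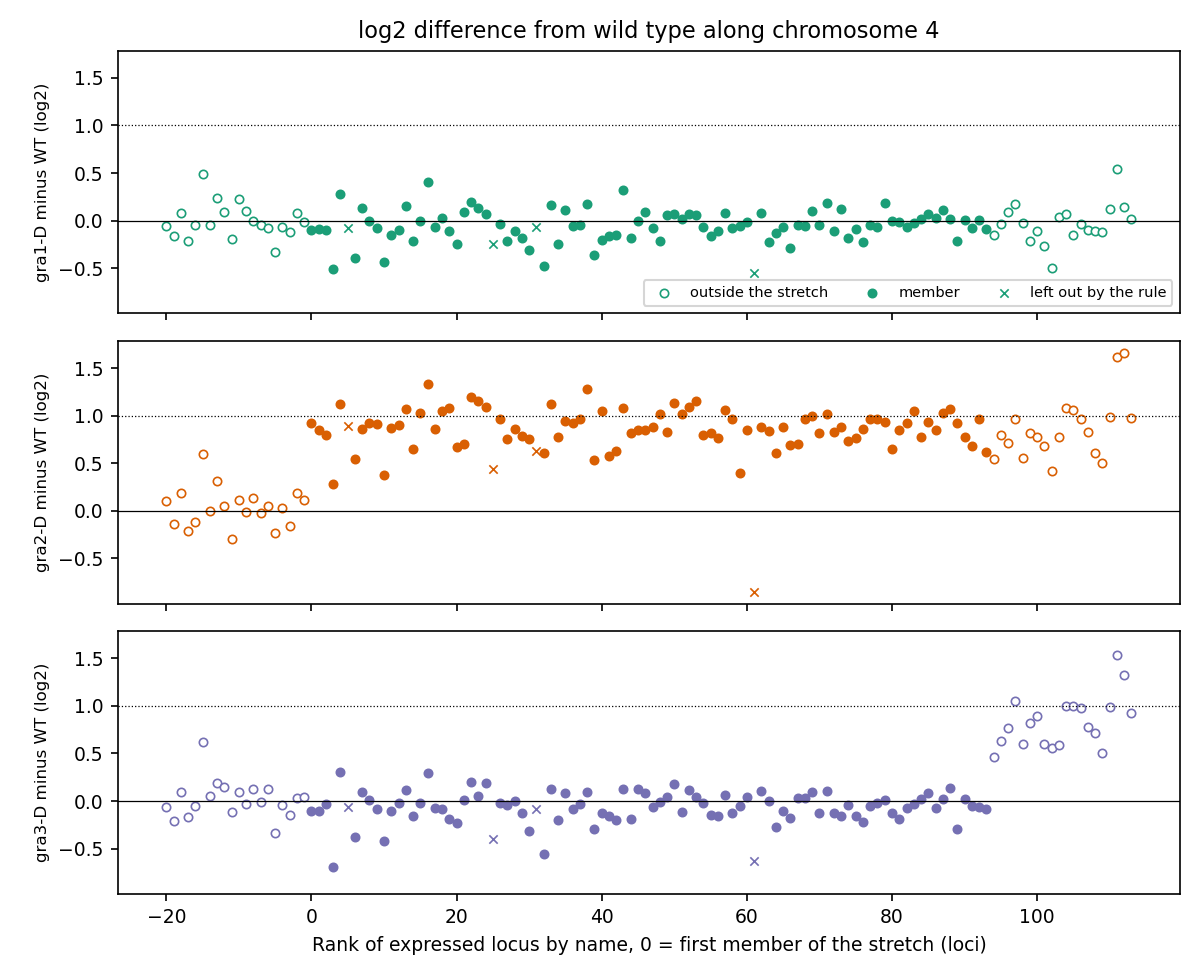
Difference from wild type (log2, vertical axis) of each expressed locus in the order of locus names (horizontal axis, 0 = AT4G31170), in 1 panel per line; filled points are the 90 expressed members, open points 20 expressed loci on either side, crosses the loci left out. In gra2-D the members lie between 0.28 and 1.33, while in gra1-D and gra3-D they scatter around 0; in gra3-D the points rise to the right of the stretch.

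By limma across all loci, 100 of the 136 genes were called higher in gra2-D than in wild type at an adjusted p under 0.05 (88 of the 90 expressed) where 5.24% of all loci and 7.81% of expressed loci were called higher. None was called lower (6.23% of all loci were), and 0 were lower at an unadjusted p under 0.05 (2766 of all 20777 loci were). These calls restate the choice of the genes. The 2 expressed genes without a call were AT4G31210 and AT4G32340, of which AT4G32340 was called when the replicate number was a block in the fit and AT4G31210 without gra2-D replicate 2. In 89 of 90 expressed genes all 3 gra2-D arrays lay above the other 9 arrays, a pattern found in 2.78% of expressed loci on the whole table. Of the 90 genes, AT4G31330, AT4G31890, AT4G32000 and AT4G32050 reached a mean of 6 only through gra2-D, which favours that pattern. Of the 86 genes with such a mean over the 9 other arrays, 85 showed it. The exception was AT4G31210, with 7.70, 7.81 and 7.56 for wild type, 7.02, 7.24 and 7.27 for gra1-D, 8.06, 7.69 and 8.15 for gra2-D and 7.06, 6.99 and 6.95 for gra3-D. There the second gra2-D array fell inside the wild-type range, while the gra1-D and gra3-D arrays were below every wild-type array.

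Differences of single expressed genes between gra2-D and wild type ran from 0.28 to 1.33, with deciles at 0.63 and 1.09 and a median of 0.87 (median over all loci -0.00017). They were under 0.5 in 3 genes, from 0.5 to 0.75 in 16, from 0.75 to 1 in 47, and at least 1 in 24, with CYP83B1 and AT4G31890 highest. The spread over the genes was smaller against the other lines: its SD was 0.19 against wild type, 0.13 against gra1-D and 0.14 against gra3-D. Expressed loci outside the raised run had SDs of 0.23, 0.14 and 0.14 in these 3 comparisons, so the narrower spread against the other lines was seen across the genome too. All 3 comparisons share the gra2-D arrays.

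The size of the difference varied with the wild-type level. Genes with a wild-type mean of 6 to 8 (41 genes) and of 8 to 10 (37 genes) had median differences of 0.88 and 0.90 in gra2-D. The 7 genes at 10 to 12 had a median of 0.69 and lay between 0.58 and 0.85. The only gene above 12, PDE334, stood at 0.40 ± 0.062. Towards the background the medians were 0.74 for 13 genes at 5 to 6, 0.29 for 16 genes at 4 to 5 and 0.056 for 21 genes under 4. In gra1-D the medians of these classes lay between -0.089 and 0.048, and in gra3-D between -0.16 and 0.023.

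**Figure D2:**
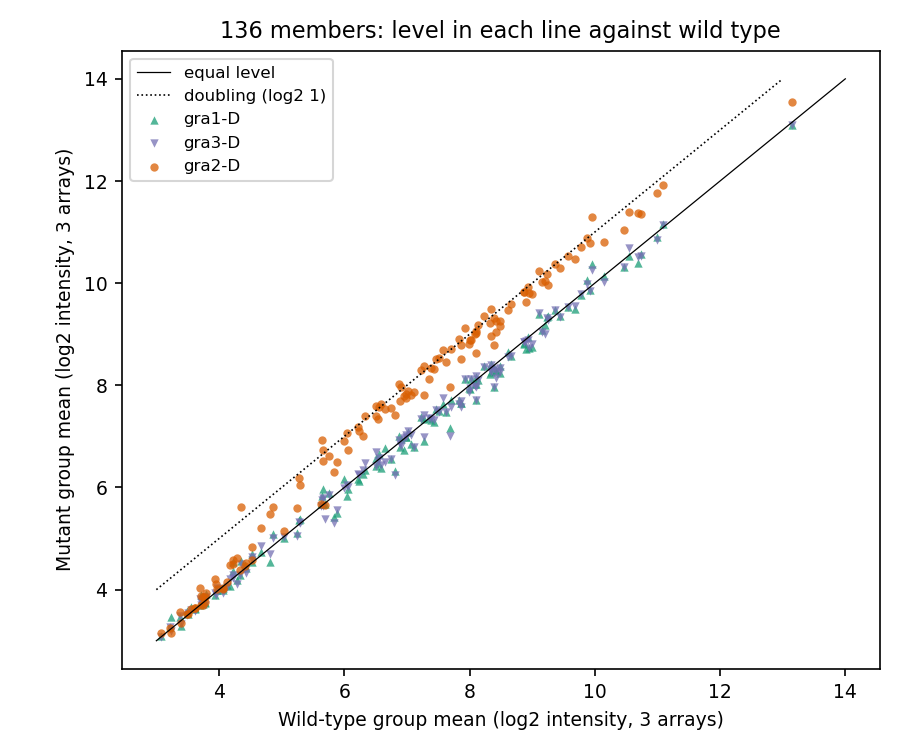
Group mean log2 level of each of the 136 members in gra1-D, gra2-D and gra3-D (vertical axis) against its wild-type mean (horizontal axis), 3 arrays per mean; the solid line marks equal levels and the dotted line a doubling. Most gra2-D points run near the dotted line from about 5 upward, but BAT1, GLR2.4 and AT4G32105 lie near the solid line. Most points near 4 and below lie near the solid line, while NRX2, with a wild-type mean of 4.35, lies above the dotted line. The points bend towards the solid line at PDE334, the brightest member.

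The groups of role below were drawn up by hand and hold only genes with a name. Loci with only an identifier follow after them. Genes of auxin and indole metabolism held the largest difference among the expressed genes. CYP83B1, also called SUR2, encodes the cytochrome P450 that oxidises indole-3-acetaldoxime on the way to indole glucosinolates and so draws on a precursor that can also feed auxin synthesis. It stood at 10.18, 9.85 and 9.86 for wild type, 10.66, 10.17 and 10.29 for gra1-D, 11.40, 11.03 and 11.45 for gra2-D and 10, 10.30 and 10.44 for gra3-D. The gra2-D arrays were all above the other 9, while the gra1-D and gra3-D arrays overlapped with wild type. The difference between gra2-D and wild type was 1.33 ± 0.15, or 2.51-fold, against 0.92 ± 0.15 relative to gra1-D and 1.04 ± 0.15 relative to gra3-D. In gra1-D itself CYP83B1 stood 0.41 above wild type with limma's adjusted p = 0.157, which is no call.

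ENP, also known as MAB4, acts with the kinase PINOID in placing auxin transporters and in the outgrowth of organs. Its values were 8.21, 8.18 and 8.29 for wild type, 8.25, 8.49 and 8.41 for gra1-D, 9.34, 9.49 and 9.22 for gra2-D and 8.42, 8.36 and 8.29 for gra3-D. The gra2-D arrays did not overlap with any other group, and the difference from wild type was 1.12 ± 0.084. YUC1, a flavin monooxygenase gene of auxin synthesis, lay at 4.52 ± 0.19 (SD, n = 3) in wild type and 4.58 ± 0.13 in gra2-D, a difference of 0.058 ± 0.10 between 2 levels close to background. The auxin-induced SAUR37 was close to background as well, with 3.80 in wild type and 3.93 in gra2-D. Of these 4 genes 2 were called higher and 0 lower in gra2-D, with a median difference of 0.63.

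Among other hormone genes, RR10, known as ARR10, encodes a type-B response regulator that activates cytokinin targets. It read 7.13, 7.24 and 7.45 for wild type, 6.93, 6.83 and 6.96 for gra1-D, 7.69, 7.76 and 7.97 for gra2-D and 6.93, 6.93 and 7.08 for gra3-D. The gra2-D arrays were highest and the gra1-D and gra3-D arrays lowest, with wild type in between and no overlap between wild type and either set. RR10 differed from wild type by 0.53 ± 0.095 in gra2-D, and gra2-D exceeded gra1-D by 0.90 and gra3-D by 0.83. TIFY8, a gene of the TIFY family that also includes the jasmonate repressors, was among the brighter members with 10.11, 10.10 and 10.26 in wild type and 10.73, 10.78 and 10.90 in gra2-D. The difference was 0.65 ± 0.078, below the median of the stretch.

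CCD8, also known as MAX4, encodes a carotenoid cleavage dioxygenase of strigolactone synthesis, and BAT1 an acyltransferase that acts on brassinosteroids. CCD8 was close to background on every array, between 3.48 and 3.73. BAT1 had more signal, at 5.73, 5.66 and 5.68 for wild type, 5.63, 5.69 and 5.71 for gra1-D, 5.68, 5.67 and 5.62 for gra2-D and 5.39, 5.53 and 5.27 for gra3-D, and differed in gra2-D by -0.032 ± 0.072. Its wild-type, gra1-D and gra2-D arrays overlapped and the gra3-D arrays lay below all of them. The gra3-D difference of -0.29 ± 0.072 was called (limma adjusted p = 0.026), but that call was lost under 9 of 12 alternatives, with adjusted p up to 0.115. Of the 4 other hormone genes 2 were called higher in gra2-D and 0 lower, with a median difference of 0.28.

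**Figure D3:**
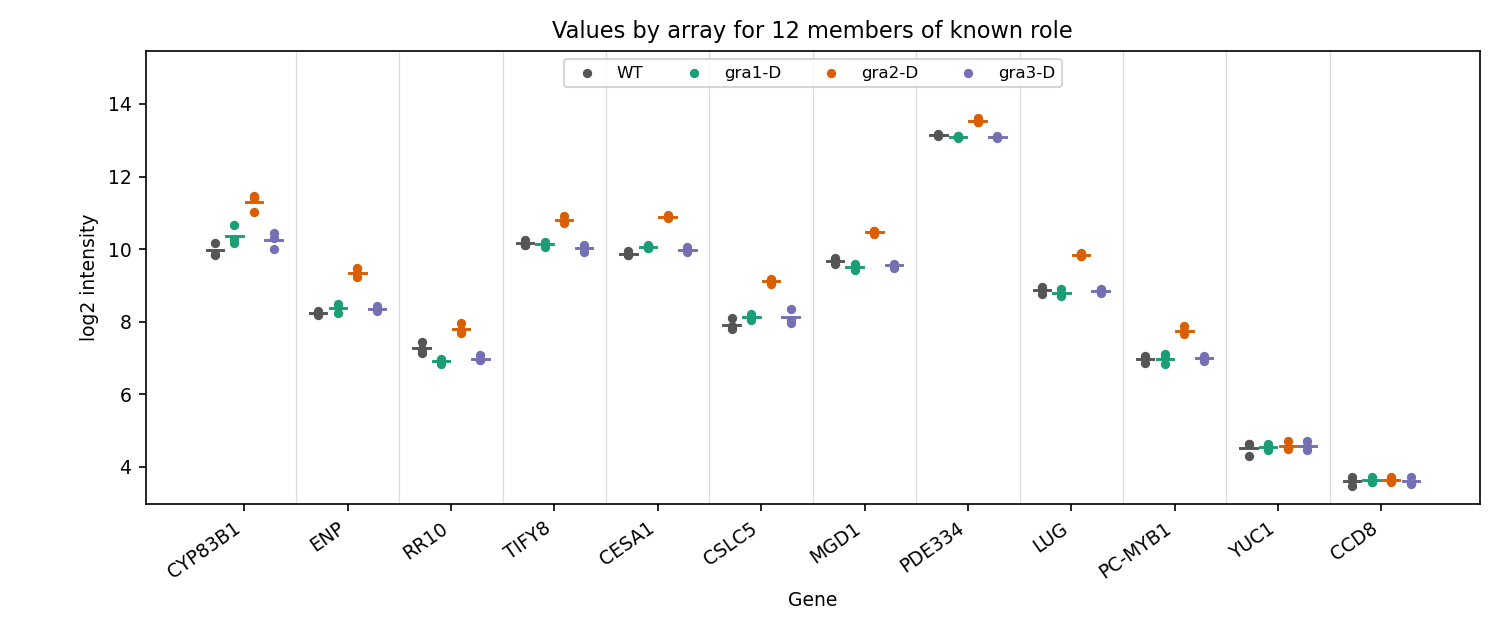
log2 intensity on each array (points, with a bar at the mean of 3) for 12 members of known role, coloured by group. The gra2-D arrays lie above the other groups in 10 genes, while YUC1 and CCD8 are close to background and overlap in all 4 groups.

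Transcription and chromatin genes made up 9 members, of which 8 were expressed and 8 were called higher in gra2-D, with a median difference of 0.82. WRKY11, which encodes a WRKY factor that restrains basal defence, stood at 7.87, 7.89 and 7.72 for wild type, 7.67, 7.85 and 7.62 for gra1-D, 8.90, 8.98 and 8.86 for gra2-D and 7.74, 7.80 and 7.39 for gra3-D. The gra2-D arrays were far above the rest, with a difference of 1.08 ± 0.10 against wild type, 1.19 against gra1-D and 1.27 against gra3-D. LUG (LEUNIG), a co-repressor of floral and leaf development genes, read 8.77, 8.88 and 8.96 in wild type and 9.80, 9.81 and 9.88 in gra2-D, and the groups were separate with a difference of 0.96 ± 0.074.

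PC-MYB1, also known as MYB3R1, encodes a MYB factor that controls genes of mitosis. It read 7.06, 6.87 and 7.0 in wild type and 7.87, 7.65 and 7.74 in gra2-D. Its difference was 0.78 ± 0.086 against wild type and nearly the same against gra1-D (0.77) and gra3-D (0.76). HSL1, known as VAL2, is a B3-domain repressor of seed genes after germination, and stood at 6.60, 6.65 and 6.96 in wild type and 7.64, 7.40 and 7.65 in gra2-D, a difference of 0.82 ± 0.13. KNAT5, a KNOTTED-like homeobox gene, differed by 0.88 ± 0.12, and TAFII15, a subunit gene of the general factor TFIID, by 0.96 ± 0.063. The remaining expressed members of the group were RR10 and TIFY8, above. PKR2, a chromatin remodelling gene of the CHD3 class, stayed close to background at 3.77 and 3.86.

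The REM cluster consists of neighbouring genes, several named for the reproductive meristem, where the founding member is expressed. REM1 lay between 3.51 and 4.09 on all arrays and REM35 between 3.63 and 4.02. They differed between gra2-D and wild type by -0.012 ± 0.10 and 0.12 ± 0.10. Neither was called in gra2-D by limma, and both were close to background in every group.

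Plastid genes were the largest group: 10 of 11 were expressed and 11 were called higher in gra2-D, with a median difference of 0.63. The list as drawn up, 13 genes with loci that have only an identifier, had a median of 0.67 in gra2-D. In gra1-D and gra3-D its medians against wild type were -0.13 and -0.19. The call of ACDO1 was lost without WT replicate 3 or gra2-D replicate 1. MGD1 makes monogalactosyldiacylglycerol, the main lipid of thylakoid membranes. It stood at 9.58, 9.72 and 9.75 for wild type, 9.41, 9.58 and 9.52 for gra1-D, 10.42, 10.50 and 10.51 for gra2-D and 9.60, 9.48 and 9.57 for gra3-D. The groups of gra2-D and wild type were separate with a difference of 0.79 ± 0.072, while gra1-D and gra3-D differed from wild type by -0.18 and -0.13, without a call. PGR3, a pentatricopeptide repeat protein that stabilises plastid transcripts of electron transport, read 9.34, 9.44 and 8.90 for wild type, 8.96, 9.60 and 9.45 for gra1-D, 10.13, 10.24 and 10.14 for gra2-D and 9.37, 9.25 and 9.29 for gra3-D. Wild type and gra1-D spread widely here while the gra2-D arrays were close together and above all others, and the difference in gra2-D was 0.94 ± 0.15.

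PDE334 encodes a nuclear subunit of the chloroplast ATP synthase and was the brightest member. Its values were 13.18, 13.15 and 13.11 for wild type, 13.11, 13.11 and 13.05 for gra1-D, 13.51, 13.62 and 13.50 for gra2-D and 13.05, 13.10 and 13.13 for gra3-D. All gra2-D arrays were above the rest although the difference was only 0.40 ± 0.062, or 1.32-fold. HCF153, needed for the cytochrome b6f complex, differed by 0.67 ± 0.11, and the tocopherol cyclase gene VTE1, which read 8.44, 8.12 and 8.47 in wild type and 9.05, 8.85 and 9.01 in gra2-D, by 0.62 ± 0.11. ASP5, a plastid aspartate aminotransferase gene, stood at 10.75, 10.76 and 10.68 in wild type and 11.31, 11.43 and 11.35 in gra2-D, a difference of 0.63 ± 0.062. These 4 lay below the median difference of expressed members, 0.87.

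SHM3, a serine hydroxymethyltransferase gene, differed by 0.86 ± 0.07, the plastid nucleotide transporter gene SHS1 by 0.82 ± 0.073 and the ascorbate peroxidase gene APX6 by 0.61 ± 0.084. GPX7, which encodes a plastid glutathione peroxidase, was under the expression limit and went from 5.89 ± 0.068 (SD, n = 3) to 6.49 ± 0.37, with the widest spread of gra2-D arrays in this group. ACDO1, an ABC1-like kinase gene tied to chlorophyll degradation and photoprotection, had the smallest difference, 0.38 ± 0.09, and is described with the genes that were lower in gra1-D.

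The 5 named genes of the cell wall and secretion were all expressed and called higher in gra2-D, with a median difference of 1.05. Over the 7 measured genes of the list as drawn up, the medians were 1.02 in gra2-D, 0.062 in gra1-D and 0.042 in gra3-D. CESA1 encodes a catalytic subunit of the complex that makes cellulose in growing walls. It stood at 9.94, 9.84 and 9.85 for wild type, 10.04, 10.11 and 10.02 for gra1-D, 10.95, 10.88 and 10.85 for gra2-D and 9.91, 9.98 and 10.06 for gra3-D. The gra2-D arrays were the highest and the other 3 groups spanned less than the gap to them, with a difference of 1.02 ± 0.066, or 2.03-fold. CSLC5, of the family that makes the xyloglucan backbone, read 8.10, 7.87 and 7.79 for wild type, 8.21, 8.09 and 8.05 for gra1-D, 9.17, 9.04 and 9.15 for gra2-D and 8.05, 7.95 and 8.35 for gra3-D. Its gra2-D arrays were also above all others, by 1.20 ± 0.11 relative to wild type and by 1.0 and 1.0 relative to gra1-D and gra3-D.

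EXO70G1, a subunit of the exocyst that tethers secretory vesicles, differed by 1.05 ± 0.067, with 6.95, 6.88 and 6.88 in wild type and 7.93, 7.93 and 8.01 in gra2-D. VAMP711, a vesicle SNARE of the vacuole membrane, read 8.27, 8.41 and 8.35 in wild type and 9.52, 9.51 and 9.46 in gra2-D, which is a difference of 1.15 ± 0.066. Replicates of both genes were close together and the groups did not overlap. ENODL15, an early nodulin-like protein gene, stood 0.78 ± 0.093 higher.

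The group of DNA, cohesion and RNA genes had 6 members, 5 of them expressed, and 5 were called higher with a median difference of 0.85. RSZ22, which encodes a splicing factor rich in arginine and serine, read 9.38, 9.21 and 9.20 in wild type and 10.08, 9.82 and 9.98 in gra2-D, a difference of 0.70 ± 0.078. DBR1, the enzyme that opens intron lariats, stood at 6.27, 6.25 and 6.20 in wild type and 7.10, 7.10 and 7.09 in gra2-D, a difference of 0.86 ± 0.074, and its gra2-D replicates nearly coincided. The RNA-binding protein gene La1 differed by 0.92 ± 0.11, the nuclear envelope gene KAKU4 by 1.07 ± 0.076 and AME3, a LAMMER-type kinase gene, by 0.85 ± 0.10. CTF7, which acetylates cohesin so that sister chromatids hold together, was the member without a call. It read 5.31, 5.09 and 5.32 for wild type, 5.22, 5.16 and 4.91 for gra1-D, 5.67, 5.53 and 5.58 for gra2-D and 5.03, 5.28 and 4.87 for gra3-D, with gra2-D above every other array and a difference of 0.35 ± 0.11. CTF7 was called with the replicate number as a block and the gra3-D arrays left out.

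The cytochrome P450 genes divided by level, and the median difference of the 5 was 0.023. CYP83B1, described above, was expressed, and the other 4 were close to background. CYP82C4, which modifies root-secreted coumarins under iron shortage, lay between 3.03 and 3.19 over all arrays, and its neighbour CYP82C2, an enzyme of indole defence compounds, between 3.10 and 3.96. CYP82C3 and CYP96A2 differed from wild type in gra2-D by -0.054 ± 0.085 and 0.023 ± 0.067. Only CYP83B1 of the 5 was called in gra2-D.

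The 3 named genes of the ion channel and transport group were under the expression limit. Of these, 1 was called higher in gra2-D, and their median difference was 0.31. They do not stand for all transport genes of the stretch. The list as drawn up, with loci that have only an identifier, held 6 genes, of which 3 were expressed. Limma called 4 of the 6 higher, with a median of 0.58. The expressed transporter genes SHS1 and UTr7 are given with other members. KAT3, a regulatory subunit of potassium channels, read 3.88, 3.66 and 3.55 in wild type and 4.08, 4.15 and 3.87 in gra2-D, so that the groups overlapped slightly, and KT5, known as AKT5, a potassium channel gene, lay at 4.42 and 4.47. KAT3 (limma adjusted p = 0.0799) was called with the replicate number as a block or without WT replicate 1. GDU1, which promotes amino acid export, went from 4.17 to 4.48 with all gra2-D arrays above the other 9, yet all its group means were under 5. Of the 3 named genes GDU1 was the one called, with limma's adjusted p = 0.042. Among protein kinase genes, SD2-5, an S-domain receptor kinase gene, differed by 0.84 ± 0.10 beside AME3, and both were called higher.

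**Figure D4:**
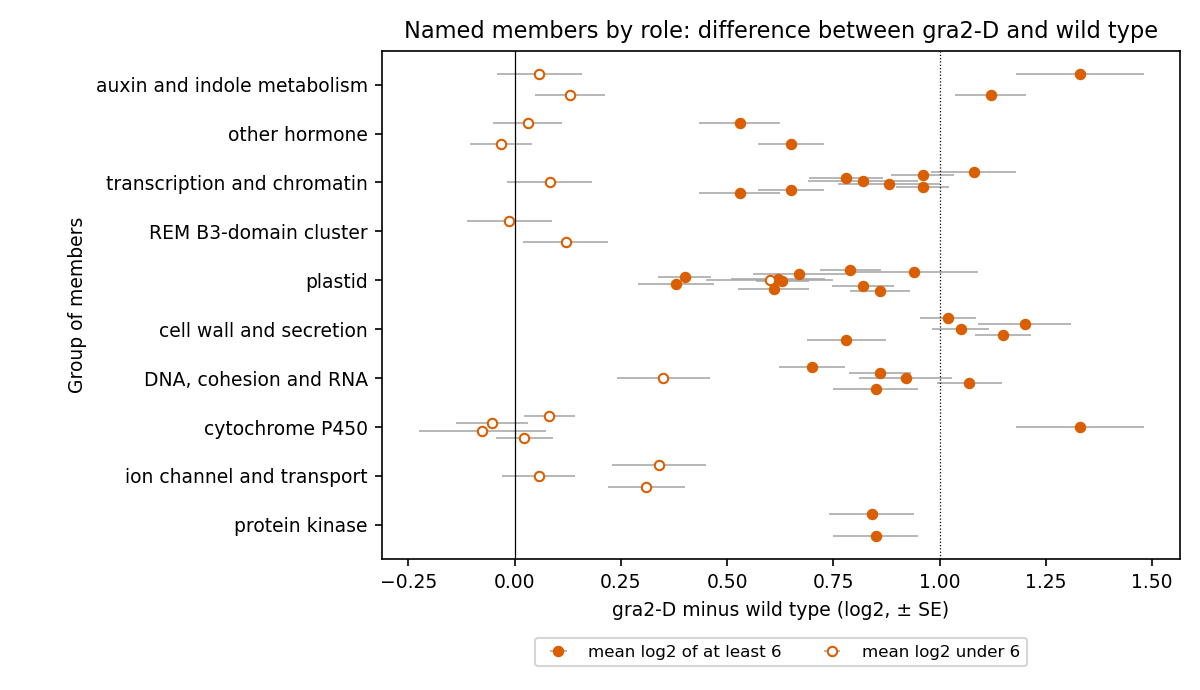
Difference between gra2-D and wild type (log2, horizontal axis, bars ± SE, 3 arrays per group) of each named member by group of role; filled points have a mean of at least 6, and the dotted line marks a doubling. Cell wall and secretion genes lie between 0.78 and 1.20 and plastid genes between 0.38 and 0.94, while REM genes and 4 of 5 cytochrome P450 genes lie near 0.

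Of the 39 expressed members with a name, 8 stood in none of these groups. AtGGCT2;2, a gamma-glutamyl cyclotransferase gene of glutathione turnover, read 9.03, 9.11 and 9.19 for wild type, 9.37, 9.45 and 9.35 for gra1-D, 10.14, 10.36 and 10.18 for gra2-D and 9.45, 9.50 and 9.31 for gra3-D. Its gra2-D arrays were highest and every gra1-D and gra3-D array was above every wild-type array, with differences from wild type of 1.12 ± 0.079 in gra2-D, 0.28 ± 0.079 in gra1-D and 0.31 ± 0.079 in gra3-D. The gra1-D difference had limma's adjusted p = 0.0594 and was not called. The gra3-D difference was called (limma adjusted p = 0.0328), but that call was lost under 5 of 12 alternatives, with adjusted p up to 0.147. UTr7, a nucleotide sugar transporter gene, stood 1.15 ± 0.082 higher in gra2-D, UBP18, a deubiquitinase gene, 1.09 ± 0.10, and GLB3, which encodes a truncated haemoglobin, 1.07 ± 0.13. IBI1, an aspartyl-tRNA synthetase that perceives a priming compound in defence, stood at 9.40, 9.48 and 9.43 in wild type and 10.27, 10.33 and 10.25 in gra2-D, a difference of 0.85 ± 0.064. REIL1, a factor of cytosolic ribosome assembly, differed by 0.90 ± 0.072, PANK2, a kinase gene of coenzyme A synthesis, by 0.82 ± 0.067, and WIN2, a protein phosphatase gene, by 0.75 ± 0.11.

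The other 51 expressed members have only a locus identifier here. Their differences in gra2-D had a median of 0.88 and ran from 0.28 (AT4G31210) to 1.28 (AT4G31890), at wild-type levels from 5.65 to 11.09, and in 50 of 51 all gra2-D arrays lay above the other 9. AT4G31890 read 5.79, 5.58 and 5.60 for wild type, 5.90, 6.03 and 5.54 for gra1-D, 7.10, 6.94 and 6.76 for gra2-D and 5.88, 5.72 and 5.67 for gra3-D. It was separate in gra2-D, and is among the expressed members only through its gra2-D arrays. AT4G32120 (1.13 ± 0.076), AT4G32000 (1.08 ± 0.067), AT4G32140 (1.09), AT4G32240 (1.06), AT4G31930 (1.05), AT4G32610 (1.05), AT4G31460 (1.03), AT4G32680 (1.03), AT4G32050 (1.02) and AT4G32130 (1.02) made up the rest of those above 1, next to AT4G32390 (1.0).

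At the lower end of these loci, AT4G31985 stood at 10.43, 10.53 and 10.45 in wild type and 11.25, 10.94 and 10.96 in gra2-D, a difference of 0.58 ± 0.083 at a high level. AT4G31450 (0.65), AT4G32460 (0.73), AT4G32750 (0.68), AT4G32350 (0.70) and AT4G31790 (0.76) were also below the median, as were AT4G31310 and AT4G31810, described with gra1-D. AT4G32340 was the noisiest bright member: it read 10.34, 10.84 and 10.88 for wild type, 10.04, 10.72 and 10.44 for gra1-D, 11.03, 11.85 and 11.26 for gra2-D and 10.62, 10.73 and 10.18 for gra3-D. Its gra2-D arrays were above all others but spread widely, and the difference of 0.69 ± 0.22 had no call. AT4G32060, the brightest of these loci in wild type, read 11.09, 11.04 and 11.16 in wild type and 11.88, 11.97 and 11.93 in gra2-D, a difference of 0.83 ± 0.084. AT4G32470 read 11.14, 10.90 and 10.97 in wild type and 11.86, 11.67 and 11.79 in gra2-D, a difference of 0.77 ± 0.084, and the remaining loci lay between 0.77 (AT4G32190) and 0.97 (AT4G32360).

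Of the 46 members under the expression limit, 13 had all gra2-D arrays above the other 9 (28.3%, against 2.22% of all loci) and 33 overlapped. The member with the largest difference was NRX2, a nucleoredoxin gene that acts on oxidised proteins, singled out here after its values were seen. It read 4.52, 4.42 and 4.10 for wild type, 4.62, 4.49 and 4.61 for gra1-D, 5.55, 5.55 and 5.75 for gra2-D and 4.56, 4.49 and 4.45 for gra3-D. The gra2-D arrays were clear of all others. The difference was 1.27 ± 0.10 from wild type, 1.04 ± 0.10 from gra1-D and 1.12 ± 0.10 from gra3-D. By the rule above the first is read as a lower bound, but picking the largest difference favours a high value. MEF8S, related to an editing factor of mitochondria, went from 4.81 ± 0.073 (SD, n = 3) to 5.49 ± 0.16, again a lower bound. GLR2.4, a glutamate receptor-like gene, had signal above 5 but overlapped in all 4 groups, with 5.64, 5.69 and 5.58 in wild type and 5.64, 5.59 and 5.78 in gra2-D and a difference of 0.041 ± 0.10.

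Beside NRX2 and MEF8S, the wild-type mean was under 5 and the gra2-D mean was not in AT4G32700 and AT4G32800, where the differences of 0.54 ± 0.11 and 0.75 ± 0.11 are lower bounds. AT4G31250 (0.86 ± 0.12), AT4G31270 (0.74 ± 0.077) and AT4G31980 (0.90 ± 0.08) were under the expression limit with separate gra2-D arrays, as were AT4G31570 (0.26) and AT4G32430 (0.34), whose group means were all under 5. The other low members, from AT4G31260 (0.037) and AT4G31280 (-0.049) to AT4G31470 (0.27), AT4G31760 (0.31) and AT4G31875 (0.36), showed overlapping arrays. The same held for AT4G31230 (-0.017), AT4G31630 (0.07), AT4G31680 (0.042), AT4G31960 (0.022), AT4G31520 (0.18), AT4G31740 (0.17), AT4G31830 (0.10), AT4G32080 (0.056), AT4G32105 (0.11), AT4G32230 (0.017), AT4G32375 (0.16), AT4G32630 (0.047) and AT4G32695 (-0.057).

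The comparison of gra1-D with wild type did not set the bounds, and it asked whether genes of the stretch differed in a line where the stretch as a whole did not. Limma called 7 of the 136 genes (5.15%), 1 higher and 6 lower, against 5.58% of all loci, so the share was close to that of the whole table. By direction, 4.41% of the genes were called lower where 2.76% of all loci were, and 0.735% higher where 2.82% of all loci were. All loci include the part of chromosome 4 that was raised in gra1-D. Among expressed loci outside the raised run 4.3% were called lower and 1.34% higher, against 5.56% and 1.11% of the 90 expressed genes. The 6 lower genes were AT4G31210, AT4G31310, ACDO1, AT4G31810, Phox4 (AT4G32070) and RR10, and the higher one was AT4G32000. The adjusted p-values of limma were 0.015 for AT4G31210 (-0.51 ± 0.11), 0.0398 for AT4G31310 (-0.39 ± 0.10), 0.0107 for ACDO1 (-0.43 ± 0.09) and 0.0119 for AT4G31810 (-0.48 ± 0.10). They were 0.0289 for Phox4 (-0.42 ± 0.10), 0.0397 for RR10 (-0.36 ± 0.095) and 0.0115 for AT4G32000 (0.32 ± 0.067). In all 7 genes the 3 gra1-D arrays lay on 1 side of the 3 wild-type arrays. Their choice by calls in this same comparison favours that pattern, so it adds nothing to the calls.

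These calls were sensitive to single arrays. The count was 4, 3 and 4 without WT replicates 1, 2 and 3, and 2 and 3 without gra1-D replicates 1 and 3. The call of AT4G31810 ended without WT replicate 1, that of AT4G32000 without gra1-D replicate 1, and that of AT4G31210 without WT replicate 2 or gra1-D replicate 1, with adjusted p up to 0.0573, 0.0617 and 0.0776. ACDO1 lost its call without WT replicate 1 or gra1-D replicate 3 (up to 0.0526), and Phox4 without WT replicate 2 or 3 or gra1-D replicate 1 or 3 (up to 0.119). AT4G31310 and RR10 each lost it under 7 of 13 alternatives (up to 0.155 and 0.149). With the replicate number as a block and without the gra3-D arrays, 11 members were called (8.09%), where 8.76% of all loci were called in that fit.

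Values of the lower genes in gra3-D, whose comparison with wild type set the upper bound and is given as a description, were similar in size. Limma called 7 of the 136 genes there (6.11% of all loci were called), 1 higher and 6 lower, where 3.13% of all loci were higher and 2.97% lower, and 5 of the 6 genes called lower in gra3-D were also among the 6 called lower in gra1-D. The 2 comparisons share the wild-type arrays. In gra3-D, 4.7% of expressed loci outside the raised run were called lower and 1.39% higher, against 4.44% and 1.11% of the 90 expressed genes. The gra3-D count was 3 and 4 without WT replicates 1 and 2, and 4 without gra3-D replicate 1, without gra3-D replicate 2 or with only these 2 groups in the fit. AT4G31310 read 8.12, 8.09 and 8.09 for wild type, 7.76, 7.84 and 7.52 for gra1-D, 8.62, 8.62 and 8.68 for gra2-D and 7.48, 7.83 and 7.85 for gra3-D. ACDO1 read 8.54, 8.34 and 8.30 for wild type, 7.92, 8.07 and 7.89 for gra1-D, 8.88, 8.81 and 8.64 for gra2-D and 7.98, 7.87 and 8.06 for gra3-D. In both genes, and in AT4G31810, the order of the groups was gra2-D above wild type above the other lines, with no overlap between wild type and any line.

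AT4G31810 had 6.94, 6.78 and 6.71 for wild type, 6.31, 6.28 and 6.41 for gra1-D, 7.64, 7.28 and 7.33 for gra2-D and 6.15, 6.39 and 6.21 for gra3-D. Phox4 had 5.71, 6.03 and 5.79 for wild type, 5.38, 5.54 and 5.36 for gra1-D, 6.47, 6.15 and 6.31 for gra2-D and 5.34, 5.18 and 5.37 for gra3-D. Both showed the same order of groups without overlap. Against gra1-D, gra2-D stood higher by 0.79 in AT4G31210, 0.93 in AT4G31310, 0.82 in ACDO1, 1.09 in AT4G31810 and 0.89 in Phox4. Against wild type the same genes differed in gra2-D by 0.28, 0.54, 0.38, 0.61 and 0.47. These values share the wild-type arrays by which the genes were picked. AT4G32000, which was higher in gra1-D, read 5.66, 5.66 and 5.66 for wild type, 6.05, 5.87 and 6.0 for gra1-D, 6.72, 6.81 and 6.68 for gra2-D and 5.76, 5.78 and 5.82 for gra3-D. There gra2-D was 1.08 above wild type and 0.76 above gra1-D.

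**Figure D5:**
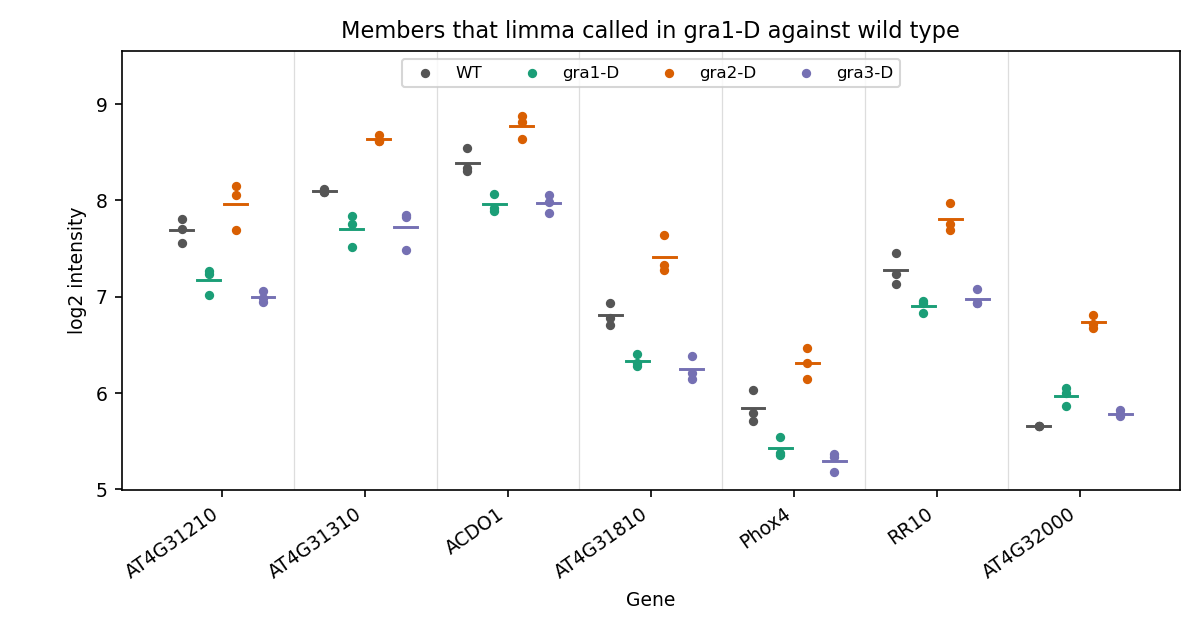
log2 intensity on each array (points, with a bar at the mean of 3) for the 7 members called in gra1-D against wild type. In AT4G31310, ACDO1, AT4G31810, Phox4 and RR10 the gra1-D and gra3-D arrays lie below wild type and gra2-D above it; AT4G32000 is lowest in wild type.

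Between gra1-D and gra3-D, the pair of lines without a shift in the stretch, limma called 0 of the 136 genes, where 0.221% of all loci were called. At an unadjusted p under 0.05, 4 genes were higher in gra1-D and 1 lower, where 389 and 412 of all 20777 loci were. Differences between these lines had an SD of 0.086 over the 90 expressed genes and ran from -0.22 to 0.29. The same genes had an SD of 0.16 between gra1-D and wild type and of 0.16 between gra3-D and wild type. Expressed loci outside the raised run had 0.10, 0.19 and 0.19, so closer values between the 2 lines than between either and wild type were seen across the genome.

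Several members work with products of genes elsewhere in the genome, and the last comparison asked whether those partners differed in gra2-D from wild type. Of 86 measured partner genes in 11 lists, drawn up by hand and holding some loci with only an identifier, limma called 10, 7 higher and 3 lower (11.5% of all loci were called, 5.24% higher and 6.23% lower). Without WT replicate 1 the count was 6. Of the 10, 3 higher genes lay in the raised run of chromosome 4 itself: CESA2, CYP79B2 and AT4G34450. These 3 were also called higher in gra1-D and gra3-D. The differences there were 0.93 and 0.92 (CESA2), 0.98 and 0.95 (CYP79B2) and 0.77 and 0.86 (AT4G34450). Outside the run 7 of 82 partners were called (8.54%, against 9.09% of all loci there), 4 higher and 3 lower. Of the 20014 loci there, 526 were called higher and 1294 lower, so lower calls were the more common kind.

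Partners of CESA1 in cellulose synthesis outside the run gave 0 calls by limma among 7 genes, with 3 at an unadjusted p under 0.05. Of all 20014 loci outside the run, 4348 had such a p in gra2-D, so nothing is read from these 3. CESA2, inside it, stood higher by 0.98 ± 0.074 (limma adjusted p = 1.07e-06). Of 7 tocopherol synthesis partners of VTE1, PDS1, which makes the homogentisate head group, fell in gra2-D, reading 9.31, 8.85 and 9.11 in wild type and 8.43, 8.18 and 8.17 in gra2-D. The groups did not overlap, and the difference was -0.83 ± 0.13 (limma adjusted p = 0.000655, and 5.11e-05 to 0.00481 under the alternatives). AT1G78620 rose by 0.23 ± 0.066, a call that ended under 5 of 13 alternatives. PDS1 differed from wild type by -0.48 in gra1-D (limma adjusted p = 0.0435, a call lost under 6 of 13 alternatives with adjusted p up to 0.16) and by -0.46 in gra3-D (limma adjusted p = 0.0535). VTE1 itself was 0.62 higher in gra2-D.

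Of 4 galactolipid partners of MGD1, MGD2, an isoform used under phosphate shortage, rose, with 5.29, 5.40 and 5.50 in wild type and 6.41, 6.12 and 6.03 in gra2-D. All gra2-D arrays were above all wild-type arrays, and the difference was 0.79 ± 0.13 (limma adjusted p = 0.000936, range 0.000385 to 0.00606 under the alternatives). MGD2 also stood higher in gra1-D and gra3-D, by 0.53 ± 0.13 and 0.65 ± 0.13, and the gra1-D call (limma adjusted p = 0.027) was lost under 4 of 13 alternatives, with adjusted p up to 0.118. Of 8 strigolactone partners of CCD8, 2 fell: D27 and AT3G03990. D27, the isomerase gene of the first step of that synthesis, read 6.32, 6.12 and 6.20 in wild type and 5.89, 5.66 and 5.65 in gra2-D, a difference of -0.48 ± 0.10 (limma adjusted p = 0.00456, range 0.00229 to 0.0252 under the alternatives). AT3G03990 differed by -0.28 ± 0.071 (limma adjusted p = 0.0183), and its call ended without WT replicate 1 or gra2-D replicate 2, with adjusted p up to 0.0813. D27 also differed from wild type in gra1-D and gra3-D, by -0.28 and -0.34, without a call. AT3G03990 differed by -0.29 in gra1-D (limma adjusted p = 0.0291, a call lost under 7 of 13 alternatives) and by -0.20 in gra3-D, without a call.

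Among 12 indole glucosinolate partners of CYP83B1 only CYP79B2, in the raised run, was called, at 0.97 ± 0.20, and the median of the list was 0.20. Of 10 loci listed as partners of coatomer genes of the stretch, which were themselves not analysed here, only AT4G34450, also in the run, was called (0.77 ± 0.062). Of 4 partners of LUG, SLK2, a gene related to the adaptor SEUSS, rose by 0.36 ± 0.10, and of 11 cohesin partners AT1G15940 rose by 0.32 ± 0.092. Both calls ended under 5 of 13 alternatives, all of them with 1 array left out (adjusted p up to 0.133 and 0.125). In gra1-D and gra3-D, SLK2 differed from wild type by 0.25 and 0.36 and AT1G15940 by 0.23 and 0.28, without a call. Limma called 0 of 9 auxin synthesis partners, 0 of 7 potassium channel partners and 0 of 6 type-B response regulator partners. At an unadjusted p under 0.05 there were 1, 1 and 3 of them, where 4348 of 20014 loci outside the run passed.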

How the data were processed

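Total RNA from 12 seedling samples was hybridised to ATH1 arrays. The deposited values are log2 expression per locus, and the submitters' processing notes name RMA, with no version or genome build given in the sources used here. RMA corrects background on each array and brings all arrays to a common distribution, which can compress differences near background and at the brightest signals. The number of arrays, 3 per group, limits the precision: the median standard error of a log2 difference was 0.0886.

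Symbols came from a RefSeq gene table of assembly TAIR10.1. The members and all lists were chosen with earlier results of these data known. Group means of all 12 arrays were fitted for 20777 loci by lmFit and eBayes of limma 3.58.1 in R 4.3.3 (8 residual and 5.28 prior degrees of freedom), with Benjamini-Hochberg adjustment over all loci and a threshold of 0.05. Each limma p-value is two-sided. On simulated data with a log2 change of 1 in 200 loci, 96.5% of them were recovered for gra2-D against wild type. That change was larger than the median difference of the expressed genes of the stretch in gra2-D, 0.87. Real differences can also be compressed near background. The share recovered is therefore not read as the power of the fit for genes of the stretch. The shift of an array is the median over expressed genes of the difference between its value and the wild-type mean, from which that of expressed loci outside the raised run was subtracted.

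Values per array were given for the first and last expressed members, the 8 largest and the 8 smallest differences, the 5 brightest genes, members called in gra1-D or gra3-D, and up to 5 genes of each list. NRX2 and other genes shown beyond that rule were chosen after their values were seen. The alternatives were further quantile normalization, centring on chromosomes 1, 2, 3 and 5, an intensity trend, array weights, fits of only the 2 groups compared, minimum means of 5 and 7, the replicate number as a block, and leaving out each array.

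Groups share replicate numbers in the labels. Deviations from the group means correlated between same-numbered arrays at 0.253 to 0.538 among wild type, gra1-D and gra2-D, so the numbers were taken to pair these, and at -0.232 to 0.366 with gra3-D, where they were not. The main fit had no term for the replicate number, so its p-values are unpaired, and the pairing entered only as a block among the alternatives. No sequences are shown because only a table of names was used.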

Additional observations from a re-analysis of the deposited data

How the results depend on the processing

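With each array left out in turn, 96 to 98 members were called higher in gra2-D, 2 to 6 were called in gra1-D, 3 to 6 in gra3-D, and 0 between gra1-D and gra3-D. Calls among partners went from 6 to 9. The shift ranged from 0.92 to 0.93 in gra2-D, from 0.0079 to 0.029 in gra1-D and from -0.024 to -0.0097 in gra3-D. In gra2-D it was 0.93 after further quantile normalization, 0.91 with a minimum mean of 5, 0.92 with a minimum mean of 7 and, chosen after seeing the data, 0.92 with a mean of at least 6 over the 9 other arrays, differences larger than the very small SD of its 3 arrays. A fit of only gra3-D and wild type called 4 members. With the replicate number as a block, 103 members were called higher in gra2-D, 10 were called in gra1-D, 10 in gra3-D and 0 between these 2 lines, and 12 partners. The block without the gra3-D arrays, whose numbers did not pair, was chosen after seeing the data and gave 104, 11 and 14 calls in gra2-D, gra1-D and the partners. Of the differences of single named genes under the alternatives, 83 dropped past the threshold in the same direction, 11 newly passed it, and 1003 stayed on their side. In 15 values of 6 differences the sign changed, all of them without a call in either fit. The block and variance settings do not apply to the shifts. Signal over background limits what can be read for the 33 members with all group means under 5.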
